A study of Mus musculus with 6 samples.

Results

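The molecular chaperones of the Hsp, Dnaj and Cct families were followed in mouse leukemia cells taken from animals that received panobinostat or vehicle. Members were all protein-coding genes whose symbol begins with Hsp90, Hspa, Hspb, Hspd, Hspe, Hsph or Dnaj, together with Tcp1, Cct2, Cct3, Cct4, Cct5, Cct6a, Cct7 and Cct8. The rule found 82 of the 27179 genes in the count table, and 70 of these were abundant enough to test, among 12916 genes tested in all. The rule uses symbols and no measured value, but it was chosen with earlier results of these data known.

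The leukemia is labelled A/E9a;NRASG12D, for a splice form of the AML1-ETO fusion (RUNX1-RUNX1T1) together with an activated NRAS. The strain is C57BL/6. The deposited counts of both groups are also labelled WT, with no stated meaning. Both groups had this same leukemia, strain and tissue: GFP-positive cells that were viable by propidium iodide were sorted from the spleen after 3 days of treatment. They differed in the agent, which was panobinostat, an inhibitor of histone deacetylases, or its vehicle, with 3 libraries each. The dose, the age of the animals and whether each library had its own animal were not given in the sources used here. The p-values therefore cover no more than how these libraries vary, which may be technical.

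Chaperones bind unfolded or partly folded proteins and help them to reach or regain their native shape. HSP70 proteins do this in cycles of ATP hydrolysis that are started by J-domain proteins of the DNAJ families and reset by nucleotide exchange factors such as HSP110. HSP90 acts late, on nearly folded clients such as kinases and hormone receptors, while the chaperonins HSP60 (in mitochondria) and CCT (in the cytosol, for actin and tubulin) enclose a client in a barrel. Heat and proteotoxic stress raise the cytosolic set through heat shock factor 1, which binds repeats of the letters GAA and TTC in promoters, and HSP90 is itself a known target of acetylation controlled by the deacetylase HDAC6.

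Libraries held 25794869 to 32571961 counts. They are named here by group and by the leading number of their column, vehicle libraries 2, 3 and 4 and panobinostat libraries 1, 5 and 6. The column names hold a further pair of numbers with no stated meaning. Vehicle libraries 2 and 3 have the same pair, and panobinostat libraries 1 and 6 share a first number. The last number of panobinostat library 1 differs from that of all the others. No first number of the pair occurs in both groups, so whatever it marks cannot be told apart from treatment. Levels are CPM, read counts divided by library size with TMM factors, and a gene is called higher or lower at an adjusted p under 0.05 in edgeR's quasi-likelihood test over all 12916 genes. RNA was measured, not protein. In bulk libraries, fewer cells of a type and less RNA per cell cannot be told apart.

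More chaperone genes were lower than higher with panobinostat, by modest amounts. Among the 70 tested members 9 fell (Cct6a, Tcp1, Cct8, Cct2, Cct4, Hspa9, Hspa14, Hsp90b1 and Hspbp1) and 4 rose (Dnajb13, Dnajb4, Dnajb6 and Dnajc12). The 13 calls are 18.6% of the tested members, near the 21.0% of all tested genes that were called, of which 11.3% were higher and 9.72% lower. The median log2 fold change of the members was -0.18, against 0.01 over all tested genes. In 21 members all panobinostat libraries lay below all vehicle libraries, in 12 all lay above and in 37 the groups overlapped; over all genes 44.6% did not overlap and 22.7% had panobinostat below. Calls leaned on single libraries, among members and over all genes. Without vehicle library 4 there were 0 called members, with 6 higher and 10 lower at an unadjusted p under 0.05, and without vehicle library 2 there was 1 higher and 0 lower. Without vehicle library 3 there were 1 higher and 2 lower, without panobinostat library 5 there were 1 and 3, without panobinostat library 6 there were 1 and 8, and without panobinostat library 1 there were 4 and 16. In DESeq2 7 members were higher and 14 lower. Over all tested genes 1460 were higher and 1255 lower in the main test. These became 303 and 135 without vehicle library 4, 429 and 180 without vehicle library 2, and 745 and 514 without vehicle library 3. They became 994 and 643 without panobinostat library 5, 1155 and 931 without library 6, and 2192 and 1864 without library 1. In DESeq2 they were 1872 and 1694. The direction of each called member was the same in all 14 alternatives.

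**Figure D1:**
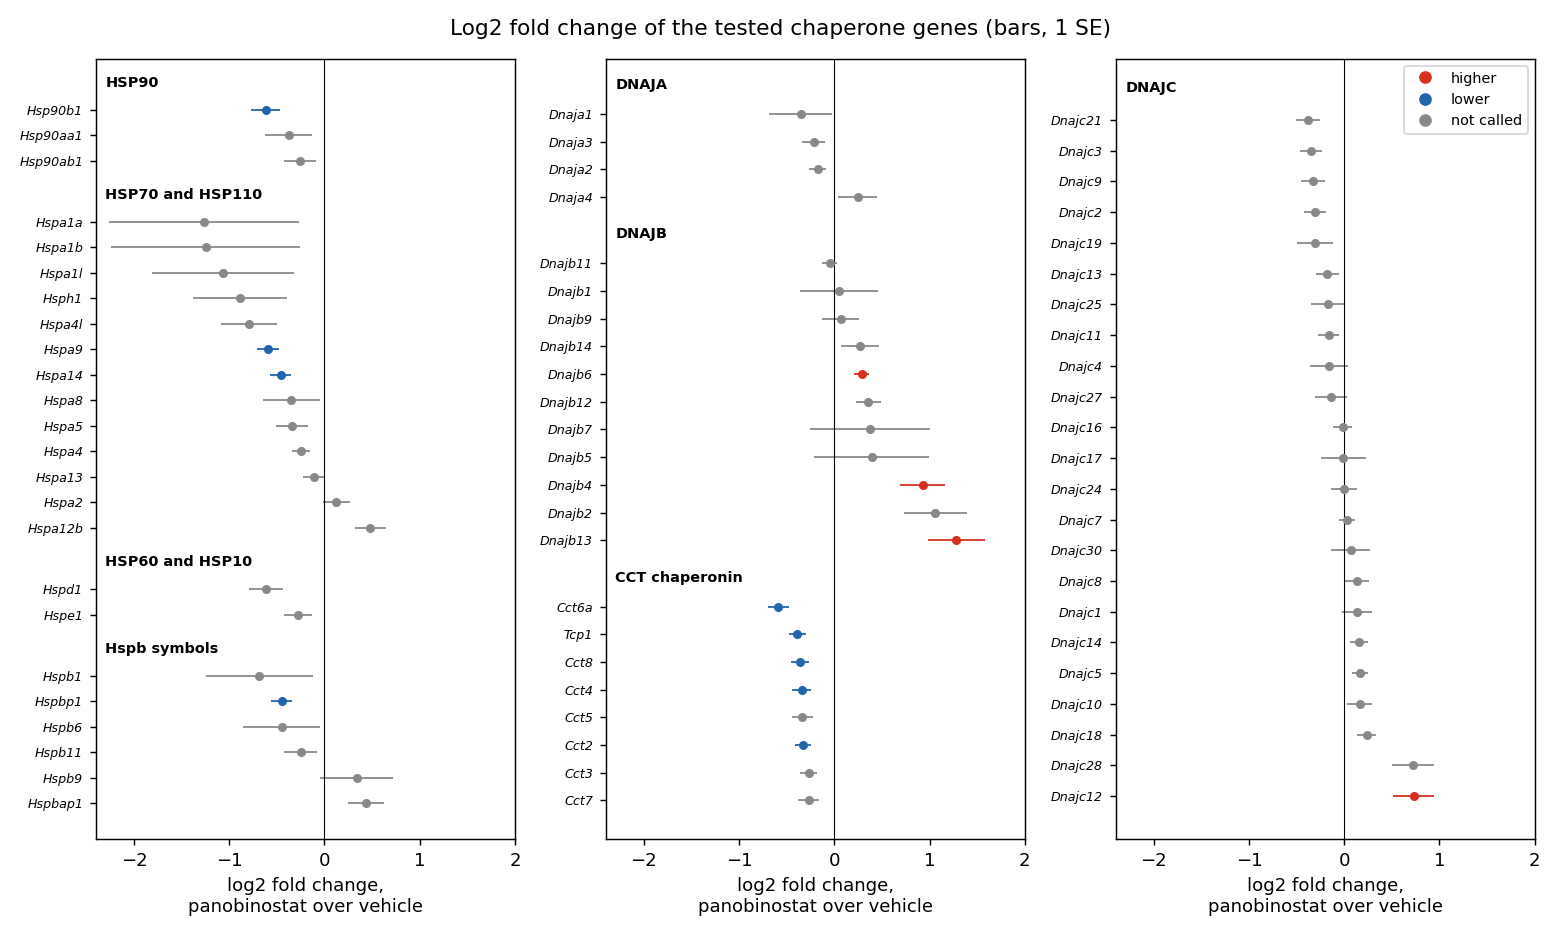
Log2 fold change of panobinostat over vehicle for the 70 tested members by family, with bars of 1 standard error, in red where called higher, blue where called lower and grey where not called. The 8 CCT subunits all sit left of 0 with short bars, while Hspa1a at -1.26 and Hspa1b at -1.25 carry bars of 1.00 and 0.99.

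The stress-inducible HSP70 genes Hspa1a and Hspa1b had the largest relative vehicle spread of the tested members. Their log2 fold changes were also the lowest of the tested members, with large standard errors and no call. Hspa1a and Hspa1b encode the same inducible cytosolic HSP70 and stand 10120 bases apart, Hspa1b at chr17:34956429-34959238 and Hspa1a at chr17:34969359-34972156. Their promoters are shown because reads may be shared between the genes and because each carries a heat shock element. Sequences here are RefSeq's for GRCm38.p6, 5′ to 3′ on the gene's strand, and capitals mark the element (GAANNTTC or TTCNNGAA, called paired). For Hspa1a the stretch is the last 140 bases before the start, chr17:34972157-34972296 on the minus strand, and for Hspa1b it is the same stretch, chr17:34959239-34959378 on the minus strand.
Hspa1a: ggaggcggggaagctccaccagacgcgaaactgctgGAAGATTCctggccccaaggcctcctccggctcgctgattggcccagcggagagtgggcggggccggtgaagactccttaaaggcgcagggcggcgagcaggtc
Hspa1b: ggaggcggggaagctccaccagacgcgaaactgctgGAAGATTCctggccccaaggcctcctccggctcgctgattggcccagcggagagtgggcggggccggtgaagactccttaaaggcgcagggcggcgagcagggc
Of these 140 bases 139 are identical, as are 247 of the 250 bases before the start (98.8%).

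Hspa1a stood at 19.6, 285 and 698 CPM in vehicle libraries 2, 3 and 4 and at 168, 64.0 and 186 CPM in panobinostat libraries 1, 5 and 6. Hspa1b stood at 24.4, 341 and 850 CPM in vehicle and at 212, 78.5 and 222 CPM in panobinostat. The vehicle libraries alone thus span more than the treated ones: the highest was 35.5 times the lowest for Hspa1a and 34.9 times for Hspa1b, against 2.90 and 2.83 times among panobinostat libraries, and all treated values lay within the vehicle range. As mean and SD over 3 libraries, Hspa1a was at 334 ± 342 CPM in vehicle and 139 ± 65.7 CPM in panobinostat, and Hspa1b at 405 ± 417 CPM and 171 ± 80.1 CPM. The vehicle coefficient of variation (SD over mean) was 102% for Hspa1a and 103% for Hspa1b, both at the 99.9th percentile of tested genes. Neither was called. The log2 fold change was -1.26 ± 1.00 (SE, edgeR adjusted p = 0.39) for Hspa1a and -1.25 ± 0.99 (adjusted p = 0.40) for Hspa1b. The estimates depended on the vehicle libraries: without vehicle library 4 they were -0.13 (adjusted p = 0.95) and -0.10 (adjusted p = 0.96), and without vehicle library 2 they were -1.82 (adjusted p = 0.098) and -1.80 (adjusted p = 0.10).

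The ratio of Hspa1b to Hspa1a held between 1.20 and 1.26 in all 6 libraries while the levels varied. Of the stretches of 50 bases in the exons of Hspa1a, 58.8% also occur in those of Hspa1b, so reads may be shared between them, and the counting of such reads was not given in the sources used here. With the counts of both summed, the log2 fold change was -1.25 (adjusted p = 0.40). Hspa1l, the testis-type HSP70 whose gene lies 546 bases from the start of Hspa1a, followed the same order at 7.08, 34.2 and 75.9 CPM in vehicle and 22.8, 9.27 and 23.8 CPM in panobinostat. It shares 9.57% of its stretches of 50 bases with Hspa1a, and its part in these values was not tested.

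**Figure D2:**
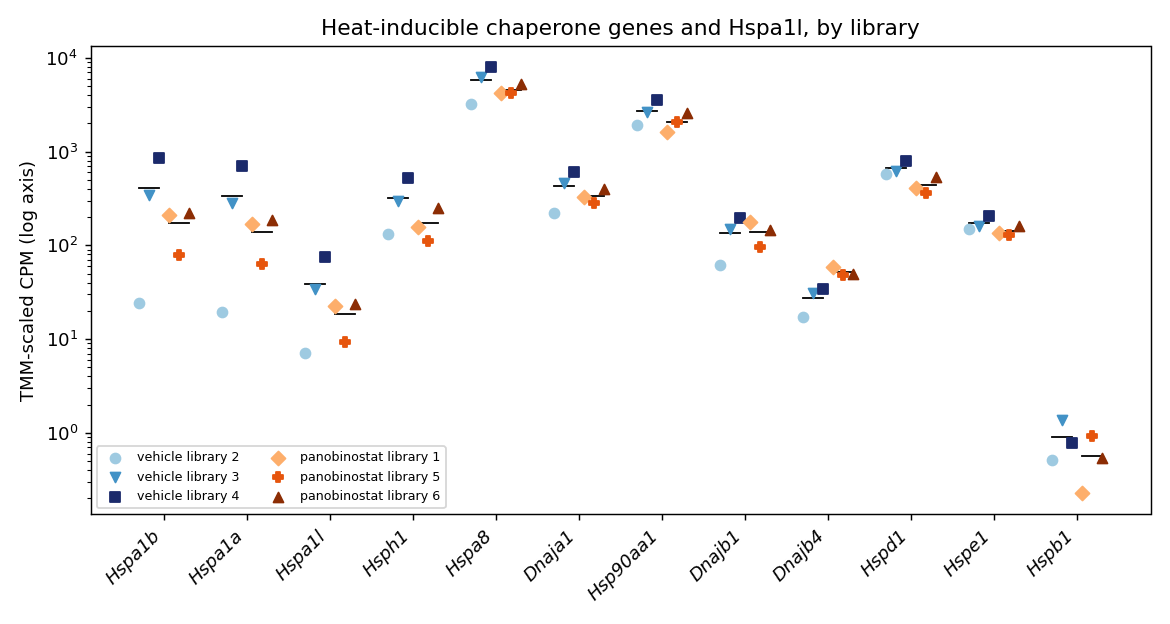
Level in CPM (log axis) of the 11 heat-inducible members and of Hspa1l in each library, vehicle in blues and panobinostat in oranges, with black bars at the group means. Hspa1a and Hspa1b spread widely in vehicle, from 19.6 to 698 CPM and from 24.4 to 850 CPM, and the panobinostat libraries fall inside it.

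The same library order ran through the heat-inducible members. This list held the inducible HSP70 and HSP110 genes, Hspa8, Hsp90aa1, Hspb1, Dnaja1, Dnajb1, Dnajb4, Hspd1 and Hspe1. In 10 of its 11 genes vehicle library 2 was the lowest and vehicle library 4 the highest of the vehicle libraries, the exception being Hspb1, and the same held for 9 of 13 tested HSP70 and HSP110 genes. It held for 26 of 70 members (37.1%) and for 18.5% of all tested genes. Of the 11 heat-inducible genes 1 rose (Dnajb4) and 0 fell, 9.09% called against 21.0% of all tested genes. Their median log2 fold change was -0.38. Vehicle library 2 also stood apart in immediate-early genes, which are switched on soon after a stimulus. It was the highest vehicle library for 10 of 16 tested ones and for 39.3% of all tested genes. Fos, a transcription factor subunit, was at 131 CPM there and at 3.90 and 9.53 CPM in vehicle libraries 3 and 4, and Egr1 was at 94.8, 12.3 and 13.4 CPM. Fos was not called between the groups (-1.51 ± 1.19, adjusted p = 0.39). Of the 16 genes 2 rose and 0 fell (12.5% called, against 21.0% of all tested genes). Those that rose were the stress-responsive Ier5 (0.73 ± 0.11, adjusted p = 0.0073) and the antiproliferative Btg2 (2.20-fold higher, adjusted p = 0.0075). The part of the immediate-early genes in the chaperone values was not tested.

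Other heat-inducible genes showed the pattern at smaller scale. Hsph1, the HSP110 exchange factor, was at 130, 298 and 527 CPM in vehicle and 156, 112 and 250 CPM in panobinostat, with a log2 fold change of -0.88 ± 0.49 (adjusted p = 0.24). Hspa8, the constitutive cytosolic HSP70, was at 3240, 6203 and 7914 CPM in vehicle and 4214, 4192 and 5236 CPM in panobinostat, a log2 fold change of -0.35 ± 0.30 (adjusted p = 0.43). Dnaja1, a J-domain partner of Hspa8, was at 223, 456 and 610 CPM against 324, 285 and 401 CPM. In each of these genes the treated values lay wholly or mostly inside the vehicle range. Dnajb1, the main J-domain partner of inducible HSP70, had nearly equal means of 135 ± 68.2 CPM in vehicle and 139 ± 41.0 CPM in panobinostat (SD, n = 3 libraries each). Without vehicle library 2 the adjusted p was 0.082 for Hspa8 and 0.095 for Dnaja1, and without vehicle library 4 it was 0.92 and 0.98.

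Vehicle spread was not a property of all chaperones. The median vehicle coefficient of variation was 9.24% over the tested members and 8.59% over all tested genes. Above the 90th percentile of tested genes lay 15 members, among them Hspa1a, Hspa1b, Hspa1l and Hsph1, and 33 lay below the median. CCT subunits ranged from 4.08% to 8.30%. The smallest value among members was 1.07%, for Dnajc5, the cysteine string protein of secretory vesicles.

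**Figure D3:**
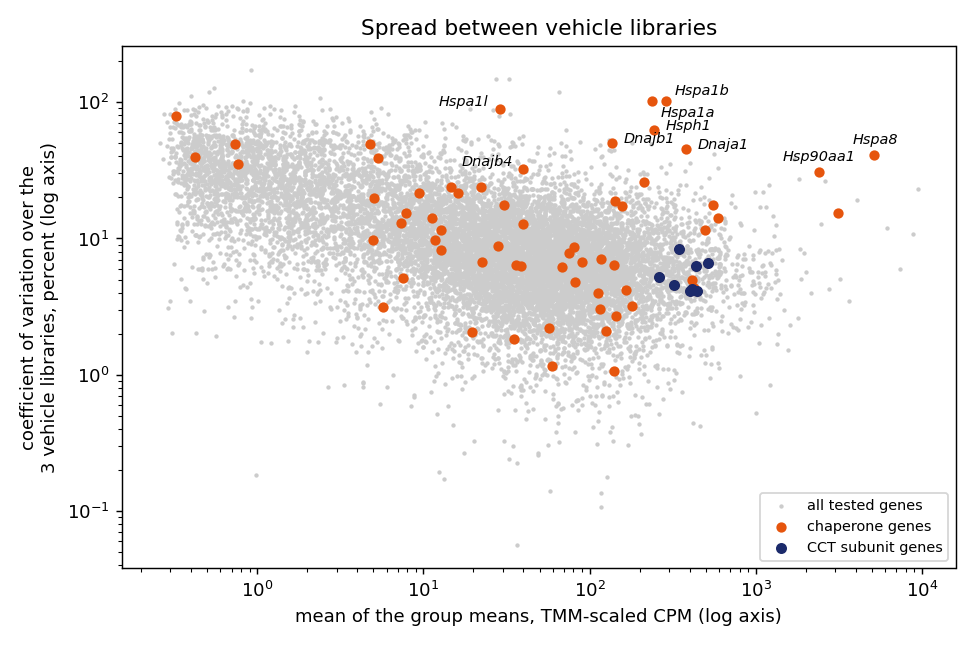
Vehicle coefficient of variation (percent, log axis) against the mean of the group means (CPM, log axis) for the tested members in orange, CCT subunits in dark blue and all tested genes in grey. Hspa1a, Hspa1b and Hspa1l lie at the top, at 102%, 103% and 88.8%, and the CCT subunits form a low group between 4.08% and 8.30%.

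Of all 13 tested HSP70 and HSP110 genes 2 fell and 0 rose (15.4% called, against 21.0% of all tested genes). The family median was -0.46. Hspa9, the mitochondrial HSP70 (mortalin) that drives protein import, was at 512, 467 and 506 CPM in vehicle and 318, 296 and 371 CPM in panobinostat, 1.51-fold lower (log2 fold change -0.59 ± 0.11, adjusted p = 0.014). Hspa14, the ribosome-associated HSP70, was at 100, 92.0 and 92.4 CPM in vehicle and 73.3, 58.9 and 74.4 CPM in panobinostat (-0.46 ± 0.11, adjusted p = 0.029), from chr2:3488854-3512814. In both genes each treated library lay below each vehicle library. The calls went without vehicle library 2 (adjusted p = 0.063 for Hspa9 and 0.10 for Hspa14) and without vehicle library 4 (0.073 and 0.099), and that of Hspa14 also without vehicle library 3 (0.073) or panobinostat library 5 (0.052). Hspa4l, an HSP110-type gene, was at 148, 179 and 216 CPM against 59.7, 126 and 128 CPM with no overlap (-0.79 ± 0.29, adjusted p = 0.092). Its relative Hspa4 was at 460 ± 20.0 CPM against 389 ± 29.0 CPM (-0.24 ± 0.09, adjusted p = 0.11). Hspa12b, a distant HSP70, had the highest fold change of the family, 10.7 ± 1.22 CPM against 14.9 ± 2.23 CPM (0.48 ± 0.16, adjusted p = 0.072).

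Both cytosolic HSP90 genes stayed uncalled and the endoplasmic reticulum (ER) form fell. Hsp90ab1, the constitutive form, was at 2836, 3479 and 3863 CPM in vehicle and 2298, 2995 and 3225 CPM in panobinostat (-0.26 ± 0.17, adjusted p = 0.30). Hsp90aa1, the inducible form, was at 1906, 2640 and 3579 CPM in vehicle and 1628, 2074 and 2556 CPM in panobinostat (-0.38 ± 0.25, adjusted p = 0.31). The groups overlapped in both. Per kilobase of exon, Hspa8 was the most abundant member in vehicle at 1345 CPM, then Hsp90ab1 at 1131 CPM and Hsp90aa1 at 689 CPM. The log2 ratio of Hsp90aa1 to Hsp90ab1 differed by -0.09 between the groups (exact 2-sided permutation p = 0.70), and that of Hspa1a plus Hspa1b to Hspa8 by -0.06 (exact permutation p = 0.90). With 3 against 3 libraries this test cannot go below 0.10. Both differences changed sign when single libraries were left out, from -0.20 to 0.031 for the first and from -1.18 to 0.74 for the second.

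Partners and regulators of HSP70 and HSP90 came from lists of related genes. Of 28 tested co-chaperones 2 fell and 1 rose (10.7% called, against 21.0% of all tested genes), and the median log2 fold change was -0.24. Fkbp4, an HSP90-bound peptidyl-prolyl isomerase of steroid receptor complexes, was at 334, 368 and 445 CPM in vehicle and 193, 202 and 280 CPM in panobinostat (-0.77 ± 0.17, adjusted p = 0.024). Nudc, an HSP90 partner, was at 156 ± 11.8 CPM against 117 ± 12.2 CPM (-0.42 ± 0.11, adjusted p = 0.035). Unc45a, the HSP90 co-chaperone for myosin, rose from 72.7, 73.7 and 65.1 CPM to 106, 113 and 94.7 CPM (0.57 ± 0.10, adjusted p = 0.012). All of them lost the call without vehicle library 2 (adjusted p from 0.053 to 0.11) or without vehicle library 4 (from 0.069 to 0.14). Fkbp4 and Nudc also lost it without vehicle library 3 (0.060 and 0.062) or panobinostat library 5 (0.062 and 0.080). Vehicle library 2 was lowest and vehicle library 4 highest for 14 of the 28, among them Chordc1 at 85.9, 161 and 226 CPM and Bag3, the stress-inducible exchange factor, at 6.88, 10.7 and 16.5 CPM. Bag3 was not called (-0.20 ± 0.36, adjusted p = 0.72).

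Of 6 tested heat shock factor genes and regulators 1 fell (16.7% called, against 21.0% of all tested genes). Hdac6, the cytosolic deacetylase whose substrates include HSP90, was at 31.5, 28.3 and 27.9 CPM in vehicle and 16.6, 21.0 and 20.1 CPM in panobinostat (-0.60 ± 0.13, adjusted p = 0.019). Without vehicle library 2, 3 or 4 the adjusted p was 0.073, 0.055 and 0.074. Hsf1, the main heat shock factor, was at 63.3 ± 2.65 CPM against 51.6 ± 3.87 CPM (-0.30 ± 0.09, adjusted p = 0.059), with no overlap between the groups. Hsf2 stayed under 1 CPM in every library, at 0.601 ± 0.106 against 0.408 ± 0.158 CPM (-0.56 ± 0.39, adjusted p = 0.34).

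The J-domain families gave 4 calls, all of them higher. Called were 27.3% of the tested DNAJB genes, 4.35% of the tested DNAJC genes and 0% of the DNAJA genes, against 21.0% of all tested genes. Of 11 tested DNAJB genes 3 rose, 0 fell and 10 had a positive log2 fold change, with a median of 0.36 (scaled by library size alone, 8 were positive and 2 rose). Of 4 DNAJA genes and 23 tested DNAJC genes 0 and 1 rose and 0 fell, with medians of -0.20 and -0.01. Over all tested genes 11.3% rose, 9.72% fell and 6605 of 12916 had a positive log2 fold change. The difference between families was not tested. The stretches before 2 of the genes that rose are shown because they carry heat shock elements. For Dnajb4 it is chr3:152193846-152193925 on the minus strand, bases 80 to 1 before the inner of 2 RefSeq starts, so inside the gene, with a paired element in capitals (the window of the outer start holds none). For Dnajb6 it is chr5:29735844-29735873 on the plus strand, bases 54 to 25 before the start, with a triple element (GAANNTTCNNGAA or TTCNNGAANNTTC) in capitals.
Dnajb4: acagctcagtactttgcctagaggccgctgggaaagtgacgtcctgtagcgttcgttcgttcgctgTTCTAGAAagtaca
Dnajb6: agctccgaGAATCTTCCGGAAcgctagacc
Dnajb6 has more than 1 start in RefSeq, and the distances given are to 1 of them. The stretch lies within an exon of a longer transcript and within an exon of another gene, Gm5129.

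Dnajb4, a heat-inducible cytosolic J-domain protein (chr3:152181580-152210432), was at 17.4, 30.9 and 33.9 CPM in vehicle and 58.6, 47.8 and 49.6 CPM in panobinostat, 1.90-fold higher (0.93 ± 0.24, adjusted p = 0.035). It is the only called gene among the 11 heat-inducible members, and its vehicle libraries kept the order of the others, lowest in library 2. Dnajb6, a suppressor of aggregation (chr5:29735898-29786478), was at 114, 116 and 111 CPM in vehicle and 148, 135 and 134 CPM in panobinostat (0.29 ± 0.08, adjusted p = 0.046). Dnajb13, a J-domain protein of sperm flagella and cilia (chr7:100503011-100514815), was at 1.94, 4.36 and 3.02 CPM against 7.95, 8.23 and 6.46 CPM (1.28 ± 0.30, adjusted p = 0.026), the highest fold change of all tested members at a low level. Every treated library lay above every vehicle library in all of them. Without vehicle library 4 the adjusted p was 0.069, 0.19 and 0.11 for Dnajb4, Dnajb6 and Dnajb13, and without panobinostat library 5 it was 0.058, 0.077 and 0.062. Dnajb4 and Dnajb6 also lost the call without vehicle library 3 (0.068 and 0.13) or panobinostat library 6 (0.071 and 0.074), and Dnajb6 and Dnajb13 without vehicle library 2 (0.12 and 0.066). The call of Dnajb6 was lost in 9 of 14 alternatives, also when scaled by library size alone (0.14) or upper quartile factors (0.057), with no filter beyond 1 count (0.091) and in limma-voom (0.0501).

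Dnajb2, a J-domain protein known from neurons, was at 7.04, 9.79 and 11.5 CPM against 30.1, 14 and 15.0 CPM without overlap (1.06 ± 0.33, adjusted p = 0.060), with panobinostat library 1 apart from the others. Dnajb11, an ER cofactor, was at 118 ± 3.56 CPM against 114 ± 5.83 CPM (-0.05 ± 0.08, adjusted p = 0.69). Among DNAJA genes the fold change ranged from -0.35 ± 0.33 for Dnaja1 (adjusted p = 0.48) to 0.25 ± 0.20 for Dnaja4 (adjusted p = 0.42). The DNAJC gene that rose was Dnajc12, whose product assists aromatic amino acid hydroxylases (chr10:63382443-63408840), from 3.10, 3.69 and 4.59 CPM to 7.17, 5.52 and 6.18 CPM (0.73 ± 0.21, adjusted p = 0.0498). This call sits at the threshold, and leaving out any 1 library ended it (adjusted p from 0.062 to 0.14), as did library size alone (0.065), upper quartile factors (0.053), no filter beyond 1 count (0.067) and robust shrinkage (0.0504). Dnajc21, a ribosome assembly factor, had the lowest fold change of the family, 40.0 ± 0.729 CPM against 30.7 ± 4.62 CPM (-0.38 ± 0.12, adjusted p = 0.066). Dnajc7, the most abundant DNAJC gene by CPM and an HSP90-binding cofactor, was at 164 ± 6.81 CPM against 167 ± 8.30 CPM (0.03 ± 0.08, adjusted p = 0.83).

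Genes matched by the Hspb prefix were low or are no small heat shock proteins. Of 10 found, 6 were tested and 1 fell (16.7% called, against 21.0% of all tested genes). That was Hspbp1, an HSP70 nucleotide exchange factor (chr7:4660515-4685188), at 64.4, 67.2 and 65.4 CPM in vehicle and 54.1, 41.0 and 49.0 CPM in panobinostat (-0.45 ± 0.11, adjusted p = 0.033). Its call was lost without each library other than panobinostat library 1 (adjusted p from 0.066 to 0.12). Hspb1, the inducible small heat shock protein, was at 0.896 ± 0.443 CPM against 0.564 ± 0.350 CPM (-0.68 ± 0.56, adjusted p = 0.41). Hspbap1, which encodes a protein associated with Hspb1, was at 10.9 ± 0.888 CPM against 14.7 ± 3.48 CPM (0.44 ± 0.19, adjusted p = 0.14). Hspb6 was at 5.52 ± 2.75 CPM against 4.04 ± 1.54 CPM (-0.45 ± 0.41, adjusted p = 0.45). Hspb9 was at 0.673 ± 0.237 CPM against 0.857 ± 0.261 CPM (0.34 ± 0.39, adjusted p = 0.56). Hspb11 was at 5.42 ± 0.525 CPM against 4.57 ± 0.328 CPM (-0.25 ± 0.17, adjusted p = 0.34). Hspb2, Hspb3 and Hspb7 were too low to test and Hspb8 had 0 counts. The other untested members were Dnajb3, Dnajb8, Dnajc5b, Dnajc5g, Dnajc6, Dnajc15, Dnajc22 and Hspa12a. Of these 12 untested members 4 had 0 counts in all libraries (Dnajb8, Dnajc22, Dnajc5g and Hspb8), which allows a level of up to 0.0946 to 0.121 CPM depending on the library (3 counts, counting error only), and none had more than 15 counts in total.

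All 8 CCT subunit genes had panobinostat libraries wholly below vehicle libraries. They encode the ring called CCT or TRiC, which is built from 8 different subunits. Panobinostat lay wholly below vehicle in 22.7% of all tested genes. Of the 8 subunits 5 fell, against 9.72% of all tested genes, and 0 rose, and the median log2 fold change was -0.34. Cct6a (chr5:129787356-129846443) was at 310, 298 and 331 CPM in vehicle and 198, 192 and 235 CPM in panobinostat, 1.50-fold lower (-0.59 ± 0.11, adjusted p = 0.013). Tcp1, which encodes the alpha subunit (chr17:12916329-12925067), was at 496, 483 and 523 CPM against 392, 352 and 405 CPM (-0.39 ± 0.09, adjusted p = 0.029). By log2 fold change Cct6a was the lowest of the ring, followed by Tcp1. Cct2 (chr10:117050997-117063852) was at 372, 341 and 363 CPM against 283, 274 and 299 CPM (-0.33 ± 0.09, adjusted p = 0.036). Cct8 (chr16:87483325-87495869) was at 469, 472 and 524 CPM against 393, 352 and 396 CPM (-0.36 ± 0.10, adjusted p = 0.038). Cct4 (chr11:22990593-23003336) was at 361, 381 and 424 CPM against 309, 288 and 322 CPM (-0.34 ± 0.10, adjusted p = 0.048).

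The uncalled subunits lay close to the called ones. Cct3 was at 442 ± 18.1 CPM against 367 ± 17.3 CPM (-0.27 ± 0.09, adjusted p = 0.066), Cct5 at 578 ± 38.2 CPM against 457 ± 46.7 CPM (-0.34 ± 0.11, adjusted p = 0.067) and Cct7 at 455 ± 19.3 CPM against 378 ± 45.5 CPM (-0.27 ± 0.11, adjusted p = 0.13). Summed over the 8 subunits the level was 3524 ± 175 CPM in vehicle and 2765 ± 196 CPM in panobinostat. All 8 log2 fold changes were negative in each of the 14 alternatives. The number of calls varied more: 8 without panobinostat library 1 or with scaling by library size alone, 7 in DESeq2, 4 with no filter beyond 1 count, 2 without panobinostat library 6, 1 without vehicle library 3 or panobinostat library 5, and 0 without vehicle library 2 or 4. Adjusted p values of the 5 called subunits then ran from 0.057 to 0.11 without vehicle library 2 and from 0.071 to 0.19 without vehicle library 4. Calls over all genes also dropped without either of these libraries, as given above. Prefoldin hands actin and tubulin to CCT. Of 11 tested genes of prefoldin and other CCT helpers 1 fell and 0 rose (9.09% called, against 21.0% of all tested genes). That was Pfdn4, at 18.1, 17.5 and 20.0 CPM against 14.8, 11.8 and 13.0 CPM (-0.49 ± 0.13, adjusted p = 0.038). Its adjusted p was 0.10, 0.089 and 0.16 without vehicle library 2, 3 or 4, and 0.094 and 0.099 without panobinostat library 5 or 6.

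**Figure D4:**
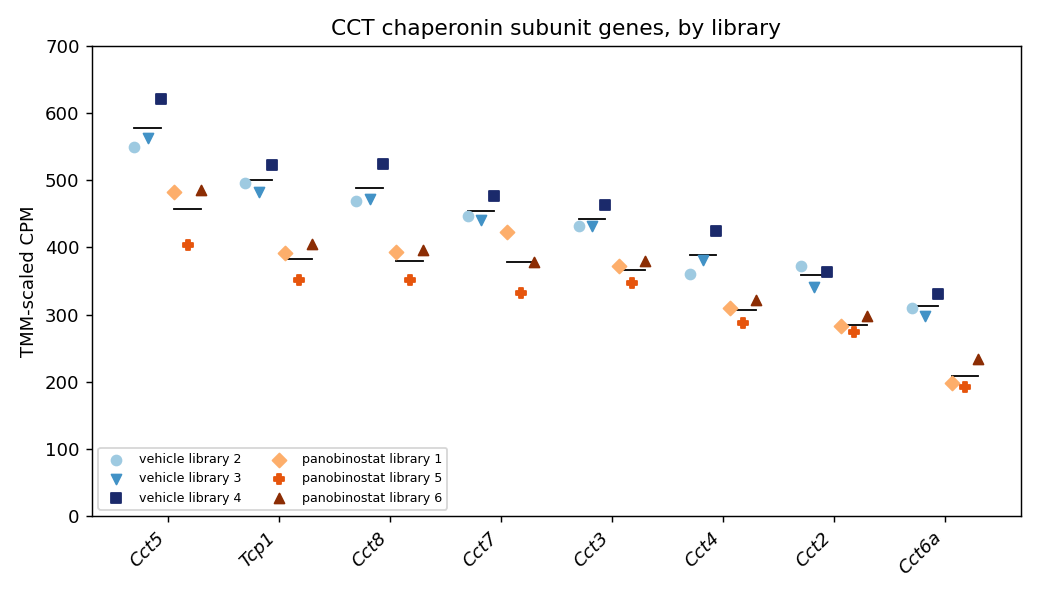
Level in CPM of the 8 CCT subunits in each vehicle and panobinostat library, with black bars at the group means. In every subunit the 3 panobinostat points lie below the 3 vehicle points, for Cct6a at 192 to 235 CPM against 298 to 331 CPM.

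In mitochondria, 1 of 7 tested members fell, the HSP70 gene Hspa9 described above, and 0 rose (14.3% called, against 21.0% of all tested genes). Hspd1 (HSP60) and Hspe1 (HSP10), the barrel and its lid, are divergent neighbours on chromosome 1 whose annotated starts overlap by 96 bases, so without a known strand setting reads from the overlap cannot be assigned. The stretch between their coding parts is shown because it holds 2 overlapping triple heat shock elements in 18 capitals. It is chr1:55088053-55088082 on the plus strand, bases 95 to 66 before the start of Hspe1, and lies in an exon of Hspd1.
Hspe1: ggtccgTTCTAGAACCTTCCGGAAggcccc
Hspd1 was at 581, 619 and 800 CPM in vehicle and 408, 363 and 536 CPM in panobinostat without overlap (-0.61 ± 0.18, adjusted p = 0.051). Hspe1 was at 151, 160 and 206 CPM against 137, 130 and 160 CPM with overlap (-0.28 ± 0.14, adjusted p = 0.21). Hspd1 narrowly missed the threshold and passed it in 6 of the 14 alternatives. Of 13 other mitochondrial chaperone and protease genes 1 fell (7.69% called). That was Trap1, the mitochondrial HSP90, at 165, 152 and 157 CPM against 115, 111 and 123 CPM (-0.44 ± 0.08, adjusted p = 0.014). The adjusted p of Trap1 was 0.062 without vehicle library 2 and 0.076 without vehicle library 4.

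In the ER, 1 of 12 members fell and 0 rose (8.33% called, against 21.0% of all tested genes). Promoters with the ER stress element (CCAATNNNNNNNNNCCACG or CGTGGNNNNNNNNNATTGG), through which ATF6 and its partner NF-Y act in the unfolded protein response, are shown for the 3 members that hold it, with the element in capitals. The stretches are chr2:34772020-34772049 on the plus strand for Hspa5 (bases 70 to 41 before the start, within an exon of a longer transcript), chr10:86705515-86705674 on the minus strand for Hsp90b1 (bases 230 to 71) and chr14:118937802-118937901 on the plus strand for Dnajc3 (bases 130 to 31).
Hspa5: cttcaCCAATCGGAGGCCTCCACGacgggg
Hsp90b1: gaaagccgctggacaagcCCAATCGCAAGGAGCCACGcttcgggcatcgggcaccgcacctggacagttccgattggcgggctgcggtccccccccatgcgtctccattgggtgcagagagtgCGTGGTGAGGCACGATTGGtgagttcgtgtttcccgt
Dnajc3: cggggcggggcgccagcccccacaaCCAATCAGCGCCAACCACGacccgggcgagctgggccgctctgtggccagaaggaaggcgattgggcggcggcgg
Genes with the same element did not all pass the test. Hsp90b1 (GRP94, the ER HSP90, chr10:86690841-86705444) fell, from 525, 611 and 663 CPM to 319, 420 and 433 CPM (-0.62 ± 0.15, adjusted p = 0.028). Hspa5 (BiP, the ER HSP70) was at 571, 652 and 758 CPM against 635, 442 and 488 CPM with overlap (-0.34 ± 0.17, adjusted p = 0.18). Dnajc3, an ER J-domain protein, was at 81.7, 91.9 and 97.0 CPM against 60.7, 74.5 and 77.1 CPM without overlap (-0.35 ± 0.12, adjusted p = 0.077). The adjusted p of Hsp90b1 was 0.061, 0.081 and 0.12 without vehicle library 2, 3 or 4.

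**Figure D5:**
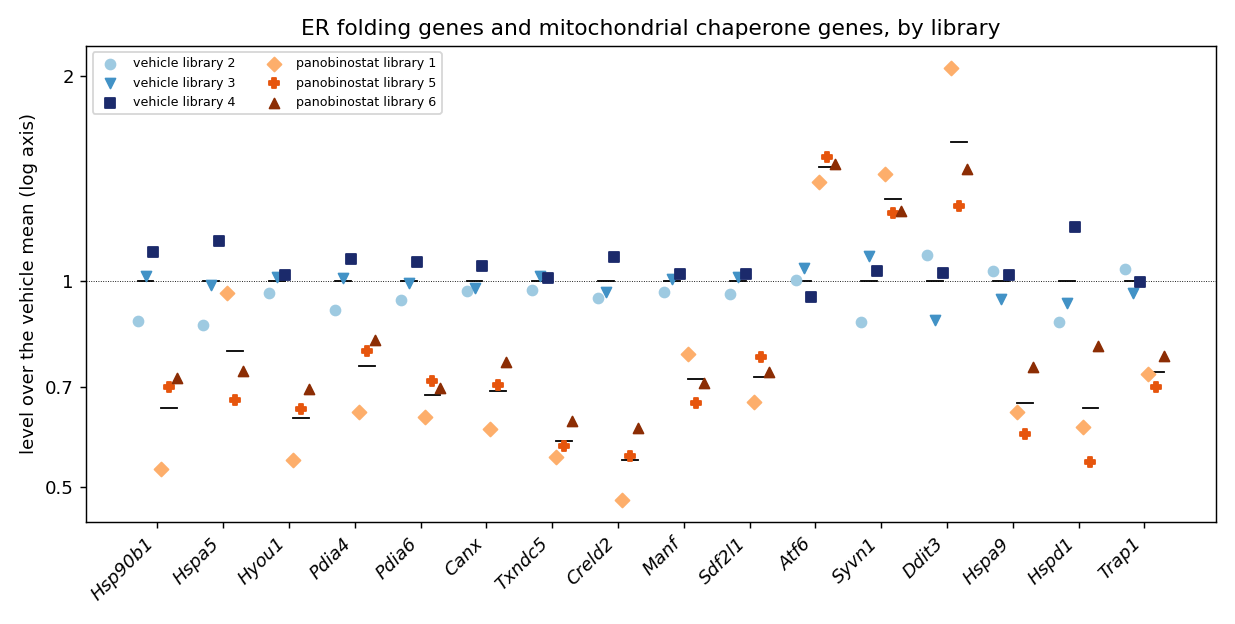
Level of ER folding genes and mitochondrial chaperone genes in each library, divided by the vehicle mean of the gene (log axis), with black bars at the group means; genes were picked for the plot after their values were seen. Hspa9, at 296 to 371 CPM with panobinostat, lies wholly below its vehicle libraries at 467 to 512 CPM, while Hspa5 overlaps through panobinostat library 1 at 635 CPM.

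Other ER genes gave calls in both directions. Of 28 tested genes of the unfolded protein response and ER folding 8 fell and 3 rose, where 9.72% of all tested genes fell and 11.3% rose, and the median log2 fold change was -0.15. Txndc5, a disulfide isomerase, fell from 126, 131 and 131 CPM to 71.4, 74.2 and 80.6 CPM (-0.78 ± 0.08, adjusted p = 0.0041). Creld2, a secreted ER stress protein, fell from 33.1, 33.8 and 38.1 CPM to 16.7, 19.4 and 21.4 CPM (-0.87 ± 0.13, adjusted p = 0.0072). Hyou1, the HSP110-type exchange factor of BiP, fell from 211, 222 and 224 CPM to 120, 142 and 153 CPM (-0.66 ± 0.11, adjusted p = 0.010). The other genes that fell were Pdia6, Manf, Canx, Sdf2l1 and Pdia4. In contrast Atf6, the stress sensor and transcription factor, rose from 105, 110 and 99.6 CPM to 147, 160 and 156 CPM (0.56 ± 0.08, adjusted p = 0.0080). Ddit3 (CHOP), a factor of prolonged ER stress, rose from 24.8, 19.9 and 23.2 CPM to 46.6, 29.2 and 33 CPM (0.68 ± 0.19, adjusted p = 0.042), and Syvn1, a ubiquitin ligase of ER degradation, rose too (0.40 ± 0.11, adjusted p = 0.043). Xbp1 was not called (-0.09 ± 0.14, adjusted p = 0.67). Without vehicle library 4 the counts were 2 lower and 0 higher, and without vehicle library 2 or 3 they were 4 and 1. Calls over all genes also dropped without each of these libraries. Hyou1 and Atf6 both had an adjusted p of 0.060 without vehicle library 4. Ddit3 lost its call without any 1 vehicle library (from 0.10 to 0.13) or panobinostat library 6 (0.069), and when scaled by library size alone (0.057).

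Promoter letters were counted over all members with a window in the RefSeq table, 250 bases before to 50 after the start on both strands, which covered 67 of the 82 members and 27025 genes. A triple heat shock element lay in 4 members (5.97%: Dnajb6, Hspd1, Hspe1 and Hsph1) and in 0.662% of all genes. The matches of Hspd1 and Hspe1 are the same bases read from opposite strands. A paired element, which every triple element contains, lay in 19 members (28.4%) and in 17.0% of all genes. Among heat-inducible members 8 of the 9 with a window held a paired element, a list for which such elements are textbook knowledge. Among CCT subunits it was found for Cct2, Cct5 and Cct6a. The ER stress element lay in 3 members (4.48%) and in 0.137% of all genes. These are matches of letters and not measured binding, and their part in the changes was not tested. Of members with a paired element Dnajb4 and Dnajb6 rose, and Cct2 and Cct6a fell. The rest, among them Hspa1a, Hspa1b and Hsph1, were not called or not tested.

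Summed over all members the level was 22736 ± 5487 CPM in vehicle and 17939 ± 1913 CPM in panobinostat (SD, n = 3 libraries each). By vehicle library the sum was 17201, 22835 and 28173 CPM, so library 2 was at the level of panobinostat libraries 1 and 5, with 16760 and 16910 CPM, and library 6 lay above it at 20146 CPM. HSP70 and HSP110 genes gave most of this spread, with 5254, 9084 and 12192 CPM in vehicle and 6293, 5840 and 7472 CPM in panobinostat.

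Marker genes of blood cell types were read beside these values, and which cells their RNA came from was not tested. Genes of red cell precursors (9 of 10 found) summed to 7593 to 8306 CPM in vehicle and to 24093 to 52812 CPM in panobinostat, and 5 of 9 rose. Plasmacytoid dendritic cell markers (6 of 6) summed to 78.2 to 91.4 CPM and to 161 to 247 CPM, of which Bst2 made up 71.2 to 87.1 CPM and 154 to 236 CPM; Bst2 alone of 4 tested rose, 2 of the 4 had a negative log2 fold change, and the defining marker Siglech was at most 0.103 CPM in any library. Macrophage markers (10 of 10) summed to 11 to 17.1 CPM and to 15.0 to 47.6 CPM, and 1 of 9 tested rose. Neutrophil markers (9 of 9) reached at most 10.1 CPM, B cell markers (6 of 6) 20.4 CPM, T cell markers (7 of 7) 1.79 CPM and NK cell markers (5 of 5) 0.441 CPM in any library, and of these Klra8 was at 0 in all vehicle libraries. Leukemia and progenitor genes (10 of 10) summed to 2702 to 3134 CPM in vehicle and 2191 to 4683 CPM in panobinostat, with Kit between 163 and 321 CPM, while Ptprc, which encodes the leukocyte antigen CD45, was at 1.77 to 4.43 CPM. Red cell precursor genes summed higher in every panobinostat library than in any vehicle library, and their part in the chaperone values was not tested.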

How the data were processed

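RNA from sorted leukemia cells was sequenced as 6 libraries. The authors deposited whole-number read counts per gene, with genes as Entrez IDs. Per the submitters' processing notes, HISAT2 2.1.0 and the build mm10 were used, with featureCounts (Subread 2.0.0), cutadapt 2.1, bcl2fastq 2.17.1.14, FastQC 0.11.6 and limma. Annotation, strandedness and how multi-mapping reads were counted were not given in the sources used here. Symbols and positions came from RefSeq for GRCm38.p6, the assembly of mm10, by ID (25275 of 27179 genes, plus 18 from GENCODE; 1886 had no name), and exon lengths from GENCODE. Column names give the group but no replicate number.

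Low genes were removed with filterByExpr by group, libraries were scaled by TMM factors, and groups were compared with edgeR 4.0.16 (R 4.3.3), quasi-likelihood F test, treatment as the only term, Benjamini-Hochberg adjustment over all 12916 tested genes. The common biological coefficient of variation was 0.195. Standard errors are the absolute log2 fold change over the square root of F. The test was also run on simulated counts, with the same dispersion for all genes and changes larger than those of most called members. That run does not cover small changes or the vehicle spread of Hspa1a and Hspa1b. Alternatives were DESeq2 1.42.0, limma-voom (limma 3.58.1), robust shrinkage, 3 other scalings, 2 other filters and leaving out each library. Counting sets the precision: 1 count is worth 0.0315 to 0.0403 CPM.

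Named genes were each called member, Hspa1a and Hspa1b, all HSP90 and CCT members, the most abundant member and the ends of the fold change range of each family, up to 3 called genes with the smallest p per related list, and a set of regulators. Others were chosen after their values were seen. Members and lists were chosen with earlier results of these data known.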

Additional observations from a re-analysis of the deposited data

How the results depend on the processing

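Members called higher and lower numbered 4 and 9. Scaled by library size alone they were 2 and 17, with upper quartile factors 2 were higher, with no filter beyond 1 count 2 were higher, and in DESeq2 they were 7 and 14. Leaving out single libraries gave 0 to 4 higher and 0 to 16 lower members, and 303 to 2192 higher and 135 to 1864 lower genes in all. With library size alone 2065 genes were lower, the median over all genes moved from 0.01 to -0.10 and higher genes went from 53.8% to 35.5% of calls. Of 13 called members 13 lost the call without vehicle library 4 and 12 without vehicle library 2; 12 kept it in DESeq2 and limma-voom. Of 57 uncalled members 16 were called in at least 1 alternative. The cause was not tested, beyond the fewer libraries. The log2 ratio of Hsp90aa1 to Hsp90ab1 ran from -0.20 to 0.031 with single libraries left out, positive without vehicle library 4. That of Hspa1a plus Hspa1b to Hspa8 ran from -1.18 to 0.74: leaving out vehicle library 3 gave 0.27, vehicle library 4 gave 0.74 and panobinostat library 5 gave 0.38. No paired analysis was possible, because the labels state no pairing of vehicle and treated samples. No column number can be tied to a replicate number of the labels either. With 3 libraries per group, vehicle spread limits what can be said of Hspa1a and Hspa1b, and depth limits members under about 1 CPM.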
